A study of Mus musculus with 8 samples.

Results

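The chemokines and chemokine receptors described here are 53 protein-coding genes of the 34450 in the deposited table, 32 ligands and 21 receptors. They were chosen by name alone: symbols of the Ccl, Cxcl, Ccr, Cxcr, Ackr and Cx3c series together with Pf4, Ppbp, Xcl1, Xcr1 and Ccrl2. The monocyte chemoattractant cluster (Ccl2, Ccl7, Ccl8, Ccl11 and Ccl12) and the receptor gene Ccr2, 6 genes, were left out by that rule. Poly(A) RNA was measured in kidneys of C57BL/6J mice aged 8 weeks, at day 3 after ischaemia-reperfusion injury (IRI), in which the blood supply of the kidney is stopped and restored. The 4 hypoxia libraries (HxIRI, numbered 1 to 4) came from mice exposed to hypoxia ahead of IRI, and the 4 normoxia libraries (IRI, numbered 5 to 8) from mice left in normoxia ahead of it. All 8 kidneys were therefore injured, and no uninjured kidney was analysed here. Whether each library is a separate mouse is not stated in the labels, so a p-value reflects how far these libraries spread, and that spread may be technical.

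Chemokines are small secreted or membrane-bound proteins that direct the movement of leukocytes through G protein-coupled receptors. CXC ligands that carry the sequence glutamate-leucine-arginine act on CXCR2 and draw neutrophils, the inflammatory CC ligands act mainly on monocytes, macrophages and T cells, and CXCL12 acts through CXCR4 on progenitor cells, lymphocytes and endothelium. Atypical receptors bind chemokines without G protein signalling and remove them. In the kidney after ischaemia, tubule cells, endothelium and incoming leukocytes all make chemokines.

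Levels are given in FPKM, which counts fragments relative to transcript length and to the mapped total of a library, so that levels of different genes can be compared per length. Ribosomal transcripts took between 13.5% and 72.5% of the assigned fragments, and the summed FPKM of nuclear protein-coding genes differed 4.02-fold between libraries, from 50007 in normoxia library 8 to 200954 in normoxia library 5. Estimated depth was 8400000 to 14500000 fragments, at which 1 fragment in a 1-kb transcript was worth 0.0690 to 0.119 FPKM. The Spearman correlation across tested genes, which are not replicates, was 0.924 between hypoxia libraries 1 and 2, 0.921 between 3 and 4, and 0.561 to 0.897 in every other pair of libraries. Normoxia library 5 stood apart: its tested genes with under 1000 exonic bases had a median of 2.39 FPKM and those with at least 3000 a median of 1.41 FPKM, a log2 difference of 0.60, where the other 7 libraries lay between -0.82 and -0.31. The changes of the genes that peaked in this library are given below with and without it. Kidney markers were present in all libraries, with summed proximal tubule markers of 382 to 759.5 FPKM after hypoxia and 87.0 to 497 FPKM after normoxia.

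Of the 53 genes, 23 were above 0 in all 8 libraries and 2, Ccr4 and Ccr6, were listed at 0 in all 8. A mean of at least 0.5 FPKM over the 8 libraries, the condition for testing, was reached by 27 genes: 23 ligands and 4 receptors. In 16 of these the mean was at least 0.5 FPKM in both groups. A further 10, Pf4 among them, reached it through the normoxia group alone, and 1, Ccl28, through the hypoxia group alone. The counts and medians over the 27 therefore describe the genes that were measurable and are no separate evidence of a difference. Each gene was tested in limma on log2(FPKM + 0.5) across all 14444 genes with that mean, and called at a Benjamini-Hochberg adjusted p under 0.05. The added 0.5 makes the change of a low gene look smaller than it was.

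After hypoxia 3 chemokine genes were lower and 1 was higher. The genes that fell were Pf4 (platelet factor 4), Ccl6 and Ccl9, and the gene that rose was Ccl28, a chemokine of mucosal epithelia. Among all tested genes 0.602% were called lower and 0.305% higher. At an unadjusted p under 0.05, 11 of the 27 were lower and 2 higher, beside 6.84% and 2.52% of all tested genes. The median log2 change of the 27 was -1.02, beside -0.14 over all tested genes, and 24 of the 27 changes were below 0 (88.9%, beside 61.0% of all tested genes). The groups did not overlap for 5 genes that were lower (Pf4, Ccl6, Ccl9, Ccl3 and Cxcl5) and 2 that were higher (Ccl28 and Cxcl12), where 3.06% and 1.86% of all tested genes did not overlap. TMM scaling, which equalises libraries on the bulk of their genes, moved the median of all genes to 0.03 and that of the 27 to -0.96. It called 4 of them lower (Ccl3 was added) and 2 higher (Cxcl12 was added), beside 1.20% and 1.18% of all tested genes. Scaling to a common sum over protein-coding genes called 4 lower and 1 higher, beside 0.976% and 0.623%.

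**Figure D1:**
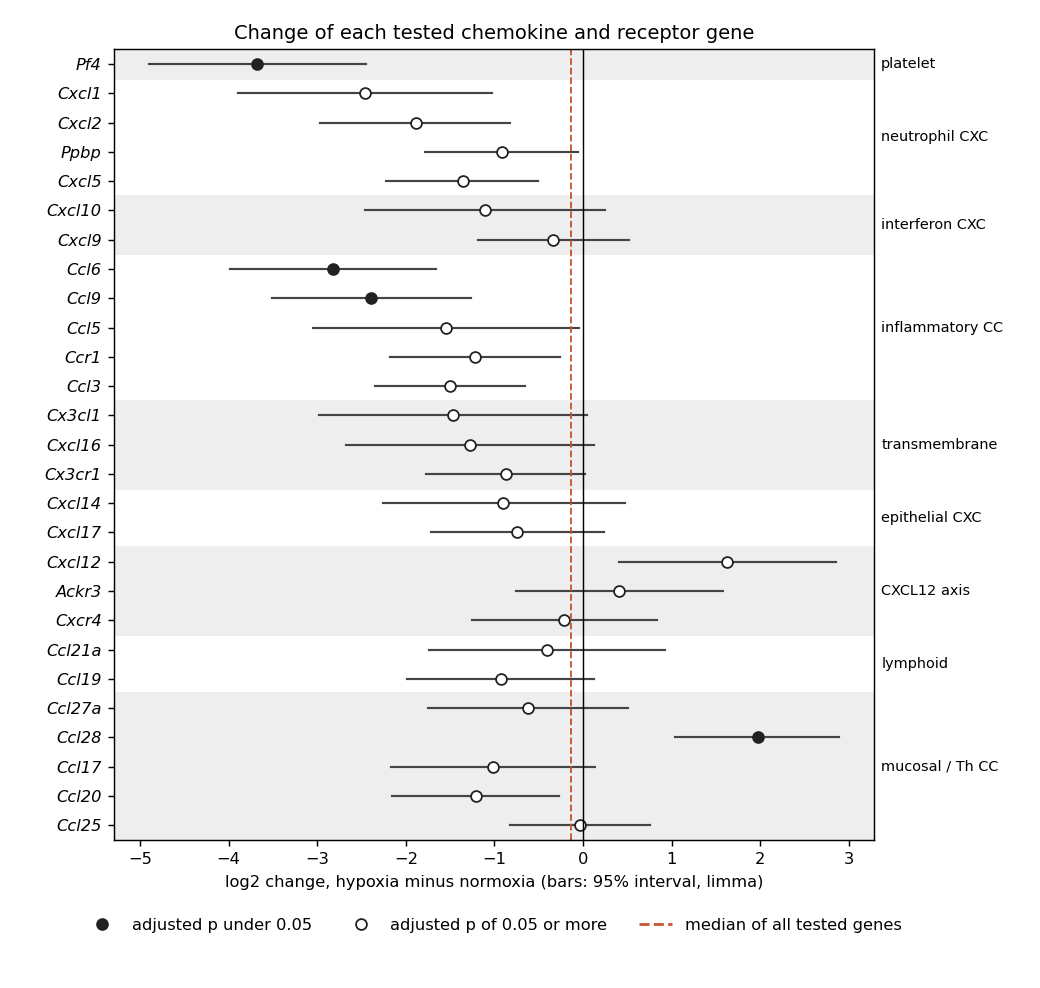
Log2 change (hypoxia minus normoxia, x axis) of the 27 tested chemokine and receptor genes, grouped by role, with 95% intervals from limma (n = 4 libraries in each group). Filled points are the 4 genes with an adjusted p under 0.05, and the dashed line is the median of all tested genes at -0.14.

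Pf4 encodes a CXC chemokine best known from platelet granules. It was 1.69 and 0.29 FPKM in hypoxia libraries 1 and 2 and listed at 0 in 3 and 4, and it was 11.01, 5.13, 31.47 and 5.11 FPKM in normoxia libraries 5 to 8. Every normoxia library lay above every hypoxia library, and normoxia library 7 was the highest. The means were 0.495 ± 0.808 and 13.2 ± 12.5 FPKM (SD, n = 4 in each group), so that Pf4 passed the filter only through the normoxia group. In limma the change was -3.68 ± 0.59 on the log2 scale (SE, adjusted p = 0.00306). Of 5 markers of platelets and megakaryocytes 2 were tested and none was called, and the summed level of the 5 was 0.730 to 2.65 FPKM after hypoxia and 1.68 to 3.55 FPKM after normoxia. Among these markers Itga2b, the platelet integrin subunit, was 0.20 to 0.73 FPKM after hypoxia and 0.14 to 1.44 FPKM after normoxia (log2 change 0.00). Itgb3, the other integrin subunit, was 0.19 to 0.99 and 1.09 to 2.25 FPKM, without overlap (log2 change -1.05, adjusted p = 0.331). Gp9, Gp1ba and Gp1bb were at most 0.78 FPKM in any library, and the part of platelets in the Pf4 values was not tested. Ppbp, which lies next to Pf4 and also encodes a platelet chemokine, was 0.54, 0.25, 0.32 and 0.21 FPKM in hypoxia libraries 1 to 4 and 0.69, 0.46, 2.50 and 1.19 FPKM in normoxia libraries 5 to 8. Its groups overlapped and it was not called (log2 change -0.92 ± 0.42, SE, adjusted p = 0.481).

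Ccl6 and Ccl9 encode CC chemokines that act on CCR1 and are made by myeloid cells. Ccl6 was 1.69, 2.18, 1.29 and 0.85 FPKM in hypoxia libraries 1 to 4 and 15.99, 10.11, 24.55 and 7.54 FPKM in normoxia libraries 5 to 8. The hypoxia libraries were all low and close together, and no normoxia library came near them. The means were 1.50 ± 0.567 and 14.5 ± 7.55 FPKM (SD, n = 4 in each group), or -2.82 ± 0.56 on the log2 scale (SE, adjusted p = 0.0162). Ccl6 overlaps E230016K23Rik on the opposite strand. Ccl9 was 1.51, 1.53, 0.22 and 0.22 FPKM in the hypoxia libraries and 10.76, 3.67, 9.64 and 2.86 FPKM in the normoxia libraries. Libraries 1 and 2 lay above 3 and 4 within the hypoxia group, and the groups did not overlap. The log2 change of Ccl9 was -2.39 ± 0.54 (SE, adjusted p = 0.032). Scaled to a common sum over protein-coding genes, Ccl9 was 0.392 to 1.12 FPKM after hypoxia and 4.88 to 5.57 FPKM after normoxia, so that the 4 normoxia libraries came close together. On that scale Ccl6 was 1.22 to 2.47 FPKM after hypoxia and 7.65 to 14.5 FPKM after normoxia.

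Both genes lie in a run of 5 chemokine genes on chromosome 11 (GRCm38, 83525778 to 83664683, a span of 139 kb), in the order Ccl5, Ccl9, Ccl6, Ccl3 and Ccl4. Ccl3, whose product acts on CCR1, was 0.10 FPKM in hypoxia library 1, listed at 0 in 2 to 4, and 1.12, 0.55, 2.64 and 0.40 FPKM in normoxia libraries 5 to 8. The groups did not overlap, and the change was not called as deposited (log2 change -1.50 ± 0.41, SE, adjusted p = 0.0814). It was called under 8 alternatives, among them TMM scaling (-1.39, adjusted p = 0.0442). Ccl4, a chemokine of activated macrophages and T cells, had a mean of 0.47 FPKM over the 8 libraries, below the level for testing. Ccl4 was 0.51 FPKM in hypoxia library 1, listed at 0 in the other hypoxia libraries, and 0.30 to 2.03 FPKM in the normoxia libraries. Ccl5, a chemokine of T cells and natural killer cells, was 2.09 and 1.11 FPKM in hypoxia libraries 1 and 2 and at 0 in 3 and 4, against 17.84, 1.54, 3.60 and 0 FPKM in normoxia libraries 5 to 8. The groups of Ccl5 overlapped, normoxia library 5 stood far above the rest, and the gene was not called (log2 change -1.55 ± 0.73, SE, adjusted p = 0.502). Without normoxia library 5 the change was -0.67 (adjusted p = 0.911), and without normoxia library 8 it was -2.41 and called (adjusted p = 0.0185).

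Of the receptors of these ligands, Ccr1 reached the level for testing. Ccr1, carried by monocytes and neutrophils, was 0.70, 0.32, 0.08 and 0.07 FPKM in hypoxia libraries 1 to 4 and 0.26, 1.40, 3.61 and 1.11 FPKM in normoxia libraries 5 to 8. Normoxia library 5 lay within the hypoxia range and the other normoxia libraries above it. The log2 change was -1.22 ± 0.47 (SE, adjusted p = 0.305), and with TMM scaling and without normoxia library 5 it was -1.49 (adjusted p = 0.0165). Of the 8 inflammatory CC ligands and receptors measured, 5 were tested, 2 (Ccl6 and Ccl9) fell and none rose, with a median of -1.55. Among all tested genes 0.602% were called lower and 0.305% higher, and the median change was -0.14. Of the 5 inflammatory CC genes, Ccl3 and Ccr1 passed the filter only through the normoxia group.

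The changes of macrophage and monocyte markers lay on the same side of 0 as those of Ccl6, Ccl9 and Pf4. Of 12 tested markers 1 fell, the Fc receptor gene Fcgr1 (log2 change -2.18, adjusted p = 0.0266), and all 12 changes were below 0 (median -2.02). Among all tested genes 0.602% were called lower and 61.0% of changes were below 0. Fcgr1, Aif1 and Ly6c2 passed the filter only through the normoxia group. The summed level of the 12 markers was 24.2 to 116 FPKM after hypoxia and 139 to 847 FPKM after normoxia, and after protein-coding scaling 46.5 to 85.5 and 268 to 405 FPKM. Fcgr1 was listed at 0 in hypoxia library 4 and so was Aif1, and no other marker of the list was at 0 in any library. The part of these cells in the chemokine values was not tested, and in whole kidney RNA fewer cells of a type and less RNA per cell cannot be told apart. Of 4 markers of injured tubule 1 fell (Krt20, log2 change -3.10, adjusted p = 0.0385), with sums of 7.23 to 126 FPKM after hypoxia and 224 to 602 FPKM after normoxia. Of 6 endothelial markers none was called, with sums of 17.6 to 36.3 and 15.0 to 45.4 FPKM.

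**Figure D2:**
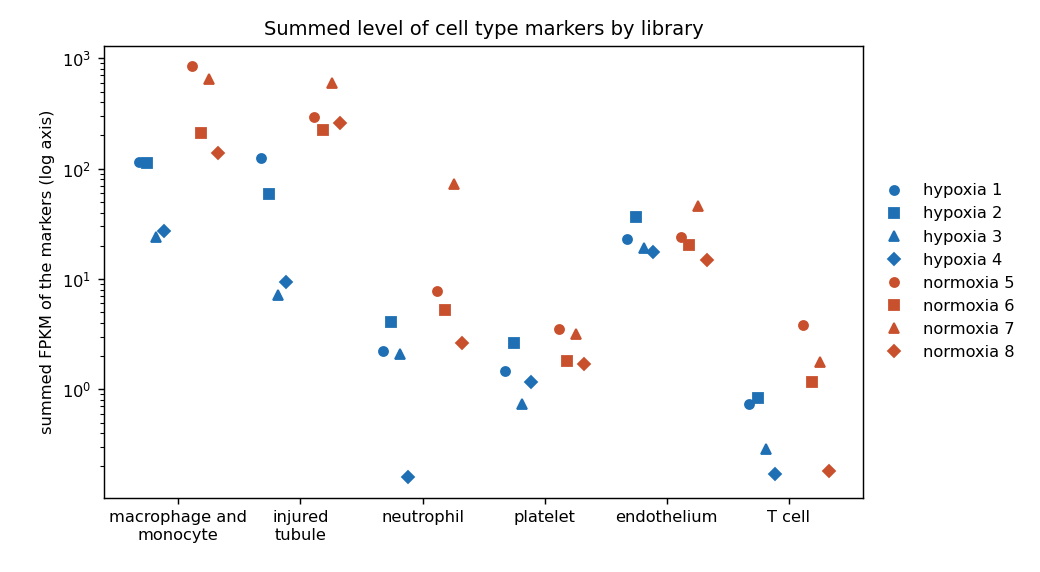
Summed FPKM (log axis) of the markers of 6 cell types in each of the 8 libraries. Macrophage and injured tubule sums of the 4 normoxia libraries all lie above those of the 4 hypoxia libraries, while the endothelial, platelet, T cell and neutrophil sums overlap.

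The neutrophil-attracting CXC genes did not pass the test as deposited. Of the 7 measured, 4 were tested (Cxcl1, Cxcl2, Cxcl5 and Ppbp) and none was called. Cxcl2, Cxcl5 and Ppbp passed the filter only through the normoxia group, so that a count of changes below 0 says nothing further here. Cxcl1, a ligand of CXCR2 made by injured epithelium, was 6.86, 2.25, 0.30 and 0.14 FPKM in hypoxia libraries 1 to 4 and 3.80, 9.51, 25.31 and 8.10 FPKM in normoxia libraries 5 to 8. Hypoxia library 1 lay within the normoxia range, and libraries 3 and 4 were far below it. The means were 2.39 ± 3.13 and 11.7 ± 9.41 FPKM (SD, n = 4 in each group), with a log2 change of -2.46 ± 0.69 (SE, adjusted p = 0.0883). Without hypoxia library 1 the change was -3.14 (adjusted p = 0.00535), and with TMM scaling and without normoxia library 5 it was -2.73 (adjusted p = 0.0426).

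Cxcl2, a ligand of CXCR2 made by macrophages and epithelium, was 0.75, 0.44, 0.04 and 0.11 FPKM in hypoxia libraries 1 to 4 and 0.63, 3.02, 8.67 and 1.53 FPKM in normoxia libraries 5 to 8. Only normoxia library 5 lay within the hypoxia range. The log2 change was -1.89 ± 0.52 (SE, adjusted p = 0.0821), and -2.21 (adjusted p = 0.0108) with TMM scaling and without normoxia library 5. Cxcl5, an epithelial ligand of the same receptor, was 0.35 FPKM in hypoxia library 1, at 0 in 2 to 4, and 0.53, 0.82, 2.55 and 0.62 FPKM in normoxia libraries 5 to 8. Its groups did not overlap, and its change was -1.36 ± 0.41 (SE, adjusted p = 0.129), called under 5 alternatives, among them TMM scaling without normoxia library 5 (-1.40, adjusted p = 0.0237). The receptor Cxcr2 was too low to test: it was 0, 0.07, 0.04 and 0 FPKM after hypoxia and 0.24, 0.30, 1.97 and 0.13 FPKM after normoxia, without overlap. The share of untested genes without overlap was not computed. Of 8 neutrophil markers 4 were tested and none was called. All 4 changes were below 0, but Csf3r, Il1r2 and S100a8 passed the filter only through the normoxia group, so this count says nothing further. The sums of the 8 markers were 0.160 to 4.04 FPKM after hypoxia and 2.63 to 72.6 FPKM after normoxia, with normoxia library 7 far above the rest. The granule genes Camp and Ngp were at 0 in all hypoxia libraries and at most 0.16 FPKM elsewhere. The part of neutrophils in these values was not tested.

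**Figure D3:**
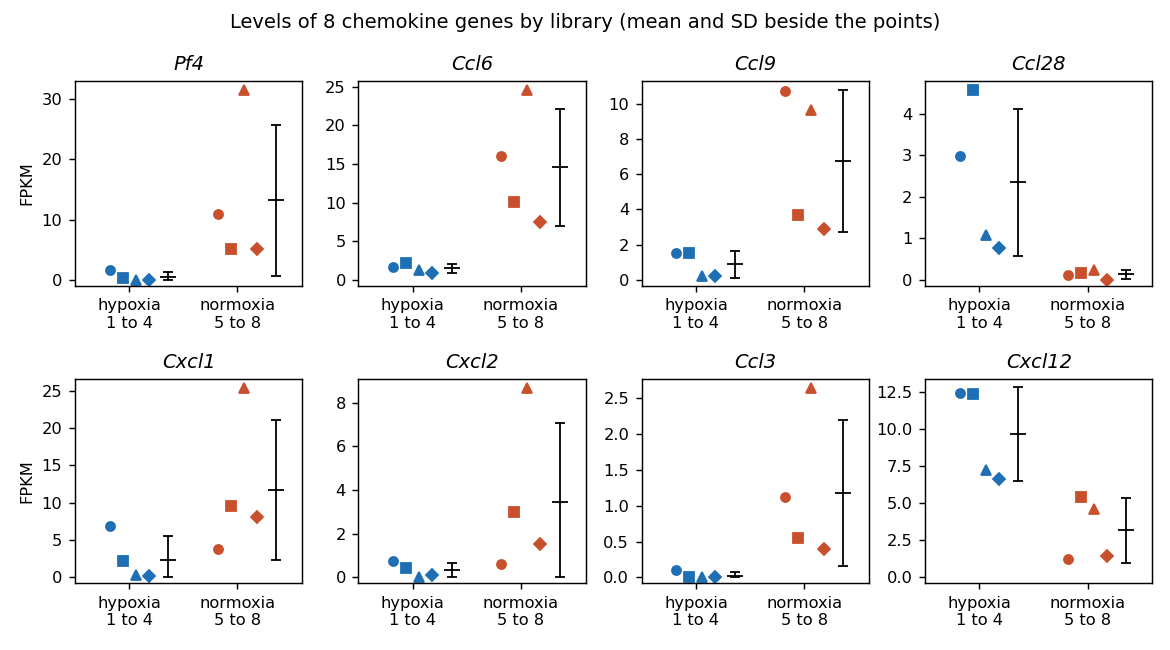
FPKM of 8 chemokine genes in hypoxia libraries 1 to 4 and normoxia libraries 5 to 8, with the mean and SD beside the points (the lower bar is drawn no further than 0). Pf4, Ccl6, Ccl9 and Ccl3 do not overlap between the groups and are lower after hypoxia, Ccl28 and Cxcl12 do not overlap and are higher, and Cxcl1 and Cxcl2 overlap in 1 library.

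Cxcl5, Ppbp, Pf4, Cxcl3, Cxcl1 and Cxcl2 form another run, on chromosome 5 (GRCm38, 90759360 to 90905938, a span of 147 kb). Promoters are shown for the 4 called genes, and for Cxcl1, Cxcl2 and Cxcl3 because these 3 neighbours share a sequence there. Each sequence is the 250 bases before the RefSeq start (GRCm38.p6) on the gene's strand, 5′ to 3′, with the NF-kB match in capitals. The windows are chr5:90890995-90891244 (plus strand) for Cxcl1, chr5:90903649-90903898 (plus) for Cxcl2, chr5:90785851-90786100 (plus) for Cxcl3, chr5:90772185-90772434 (plus) for Pf4, chr11:83578637-83578886 (minus) for Ccl9, chr11:83593088-83593337 (minus) for Ccl6 and chr13:119623569-119623818 (plus) for Ccl28.
Cxcl1: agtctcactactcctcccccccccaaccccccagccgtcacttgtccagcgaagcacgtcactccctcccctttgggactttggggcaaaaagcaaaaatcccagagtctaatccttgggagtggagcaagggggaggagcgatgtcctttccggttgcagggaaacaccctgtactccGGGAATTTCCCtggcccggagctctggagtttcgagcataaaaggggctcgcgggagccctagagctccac
Cxcl2: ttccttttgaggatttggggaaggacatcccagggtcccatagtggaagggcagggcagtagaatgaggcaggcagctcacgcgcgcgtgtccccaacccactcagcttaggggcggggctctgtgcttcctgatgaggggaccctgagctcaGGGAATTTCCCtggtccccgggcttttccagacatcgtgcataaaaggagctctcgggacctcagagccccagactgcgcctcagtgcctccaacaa
Cxcl3: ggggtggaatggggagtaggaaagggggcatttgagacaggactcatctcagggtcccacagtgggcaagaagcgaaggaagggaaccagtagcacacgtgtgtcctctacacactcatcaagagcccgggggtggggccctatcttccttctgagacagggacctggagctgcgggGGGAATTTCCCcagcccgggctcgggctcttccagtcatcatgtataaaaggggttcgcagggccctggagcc
Pf4: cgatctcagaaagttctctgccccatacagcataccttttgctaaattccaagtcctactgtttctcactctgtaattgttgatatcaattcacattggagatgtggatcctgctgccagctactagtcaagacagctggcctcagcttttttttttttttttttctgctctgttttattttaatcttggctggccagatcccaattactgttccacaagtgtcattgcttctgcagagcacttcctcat
Ccl9: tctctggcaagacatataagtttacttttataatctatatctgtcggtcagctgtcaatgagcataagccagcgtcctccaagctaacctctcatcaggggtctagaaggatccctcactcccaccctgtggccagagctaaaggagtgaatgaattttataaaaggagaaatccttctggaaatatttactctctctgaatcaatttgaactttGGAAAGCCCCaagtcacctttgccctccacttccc
Ccl6: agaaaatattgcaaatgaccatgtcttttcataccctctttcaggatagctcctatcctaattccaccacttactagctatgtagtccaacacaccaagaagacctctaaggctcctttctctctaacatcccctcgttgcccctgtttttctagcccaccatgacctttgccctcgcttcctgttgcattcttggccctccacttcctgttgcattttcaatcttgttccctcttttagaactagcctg
Ccl28: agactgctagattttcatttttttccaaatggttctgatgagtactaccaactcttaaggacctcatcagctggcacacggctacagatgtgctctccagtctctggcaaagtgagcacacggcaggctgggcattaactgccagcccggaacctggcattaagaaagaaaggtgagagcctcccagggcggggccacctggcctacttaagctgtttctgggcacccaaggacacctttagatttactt

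Cxcl1, Cxcl2 and Cxcl3 carried the same 11 bases, GGGAATTTCCC, ending 61, 87 and 63 bases before the start. This string, chosen after the sequences were seen, was found on either strand in 14 of 32851 promoters (0.0426%), and it holds 2 overlapping matches to the consensus. Ccl9 had a different match, on the other strand, 26 to 35 bases before its start. The windows of Pf4, Ccl6 and Ccl28 held no match. Over all promoters of this length 3.9% held the NF-kB consensus on either strand, and 9 of 52 windows (17.3%) of the 43 chemokine and receptor genes in the promoter table did. Those genes were Ackr2, Ccl20, Ccl9, Ccr6, Ccrl2, Cxcl1, Cxcl10, Cxcl2 and Cxcl3. TGANTCA, a pattern that includes the AP-1 site but is wider than it, was searched on both strands. It was in 11.5% of the windows and 6.75% of all promoters. The window of Ccl9 held it as TGAATCA, which is not the AP-1 consensus itself. ACGTG, the core of hypoxia response elements, was in 19.2% of the windows and 16.6% of all promoters. A match is a string of letters and does not show binding.

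Ccl28 was the 1 chemokine gene that rose. Its product acts on CCR10 and CCR3 and is made by epithelia of exocrine glands and mucosa. Ccl28 was 2.97, 4.56, 1.08 and 0.77 FPKM in hypoxia libraries 1 to 4 and 0.11, 0.17, 0.24 and 0 FPKM in normoxia libraries 5 to 8. All hypoxia libraries lay above all normoxia libraries, and libraries 1 and 2 were the highest. The means were 2.34 ± 1.77 and 0.130 ± 0.102 FPKM (SD, n = 4 in each group), or 1.97 ± 0.45 on the log2 scale (SE, adjusted p = 0.032). After protein-coding scaling it was 1.37 to 2.55 FPKM after hypoxia and at most 0.226 FPKM after normoxia. The normoxia values correspond to few fragments. Its receptor Ccr10 was at most 0.28 FPKM in any library and was not tested. Markers of distal tubule and collecting duct had sums of 78.3 to 251 FPKM after hypoxia and 19.9 to 72.0 FPKM after normoxia, with no call among 4 and all 4 changes above 0. Thick ascending limb markers had sums of 338 to 1582 and 140.2 to 531 FPKM, and after protein-coding scaling 515 to 886 and 189 to 457 FPKM, with no call among 3 and all 3 changes above 0. Of 5 proximal tubule markers none was called and 4 changes were above 0 (median 1.15). Over all 14444 tested genes 5629 changes were above 0, with a median of -0.14. The part of these tubule cells in the Ccl28 values was not tested.

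Cxcl12, the ligand of CXCR4 made by stromal cells, endothelium and tubule, also stood higher after hypoxia. It was 12.40, 12.35, 7.24 and 6.66 FPKM in hypoxia libraries 1 to 4 and 1.21, 5.45, 4.58 and 1.42 FPKM in normoxia libraries 5 to 8. The groups did not overlap, and normoxia library 6 lay nearest to the hypoxia values. The change was not called as deposited (log2 change 1.63 ± 0.59, SE, adjusted p = 0.257). It was called with TMM scaling (1.85, adjusted p = 0.0373), with quantile normalization (1.83, adjusted p = 0.0294) and with each library's trend with transcript length removed (1.67, adjusted p = 0.0316), but not with protein-coding scaling alone. With the length trend removed 2 of the 27 genes were higher and 3 lower, beside 1.38% and 1.74% of all tested genes. On the protein-coding scale normoxia library 6 lay at 7.25 FPKM, above hypoxia library 2 at 6.92 FPKM.

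Neither receptor of CXCL12 was called. Ackr3, the atypical receptor that clears the ligand, was 8.87, 3.96, 2.98 and 3.71 FPKM in hypoxia libraries 1 to 4 and 1.72, 4.90, 6.69 and 1.80 FPKM in normoxia libraries 5 to 8. Hypoxia library 1 lay above all normoxia libraries and normoxia libraries 5 and 8 below all hypoxia libraries, while the others overlapped (log2 change 0.41 ± 0.57, SE, 95% interval -0.76 to 1.58, adjusted p = 0.985). Cxcr4, the signalling receptor of leukocytes and progenitor cells, was 1.24, 2.30, 0.74 and 0.36 FPKM after hypoxia and 0.23, 1.70, 3.61 and 0.90 FPKM after normoxia. Its log2 change was -0.21 ± 0.51 (SE, 95% interval -1.25 to 0.84, adjusted p = 0.999) and turned above 0, to 0.06, when the length trend was removed. The interval of Ackr3 includes a rise of 1 on the log2 scale and that of Cxcr4 a fall of 1.

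By the mean over the 8 libraries the highest of the 53 genes were Cx3cl1 (16.7 FPKM), Cxcl16 (14.8 FPKM) and Cxcl14 (8.69 FPKM). The order differed between the groups: after hypoxia Cxcl12 (9.66 FPKM) and Cx3cl1 (9.64 FPKM) had the highest means, and after normoxia Cx3cl1 (23.7 FPKM), Cxcl16 (21.5 FPKM), Ccl6 (14.5 FPKM) and Pf4 (13.2 FPKM), with differences between neighbours smaller than the SD over libraries. Cx3cl1 encodes the membrane-bound ligand of CX3CR1. It was 15.26, 11.76, 10.02 and 1.51 FPKM in hypoxia libraries 1 to 4 and 20.92, 22.14, 40.01 and 11.66 FPKM in normoxia libraries 5 to 8. Normoxia library 8 lay within the hypoxia range (log2 change -1.47 ± 0.73, SE, adjusted p = 0.563). Cxcl16, the other transmembrane chemokine and ligand of CXCR6, was 12.94, 9.97, 4.37 and 5.22 FPKM after hypoxia and 27.99, 11.73, 36.19 and 10.17 FPKM after normoxia. Normoxia libraries 6 and 8 overlapped the hypoxia range as deposited (log2 change -1.28 ± 0.68, SE, adjusted p = 0.619). After protein-coding scaling the groups of Cxcl16 separated, with 5.58 to 9.57 FPKM after hypoxia and 13.4 to 20.9 FPKM after normoxia. It was called under 2 alternatives, both without normoxia library 5: protein-coding scaling (-1.15, adjusted p = 0.0142) and the length trend removed (-0.91, adjusted p = 0.0406). The mean levels of Cx3cl1, Cxcl16 and Cxcl14 differed by less than the spread over libraries.

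Cx3cr1, the fractalkine receptor of monocytes and resident macrophages, was 1.70, 0.70, 0.43 and 0.37 FPKM in hypoxia libraries 1 to 4 and 1.05, 2.12, 1.95 and 1.92 FPKM in normoxia libraries 5 to 8. It overlapped in normoxia library 5 and was not called (log2 change -0.87 ± 0.44, SE, adjusted p = 0.562). Its annotated span overlaps other genes on both strands, so its reads may be shared. Cxcr6 was 0.14 to 0.24 FPKM after hypoxia and 0.19 to 0.32 FPKM after normoxia and was not tested. Cxcl14, an epithelial chemokine whose receptor is uncertain, was 11.04, 7.41, 2.43 and 3.04 FPKM after hypoxia and 15.48, 14.21, 12.69 and 3.18 FPKM after normoxia. Library 8 alone of the normoxia libraries lay low (log2 change -0.90 ± 0.66, SE, adjusted p = 0.835). Without normoxia library 5, which held the highest value, the change of Cxcl14 was -0.69 (adjusted p = 0.887). Cxcl17, a mucosal chemokine, was 1.21, 1.08, 0.25 and 0.29 FPKM after hypoxia and 1.60, 0.37, 3.55 and 1.19 FPKM after normoxia, with overlap (log2 change -0.74 ± 0.48, SE, adjusted p = 0.765).

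**Figure D4:**
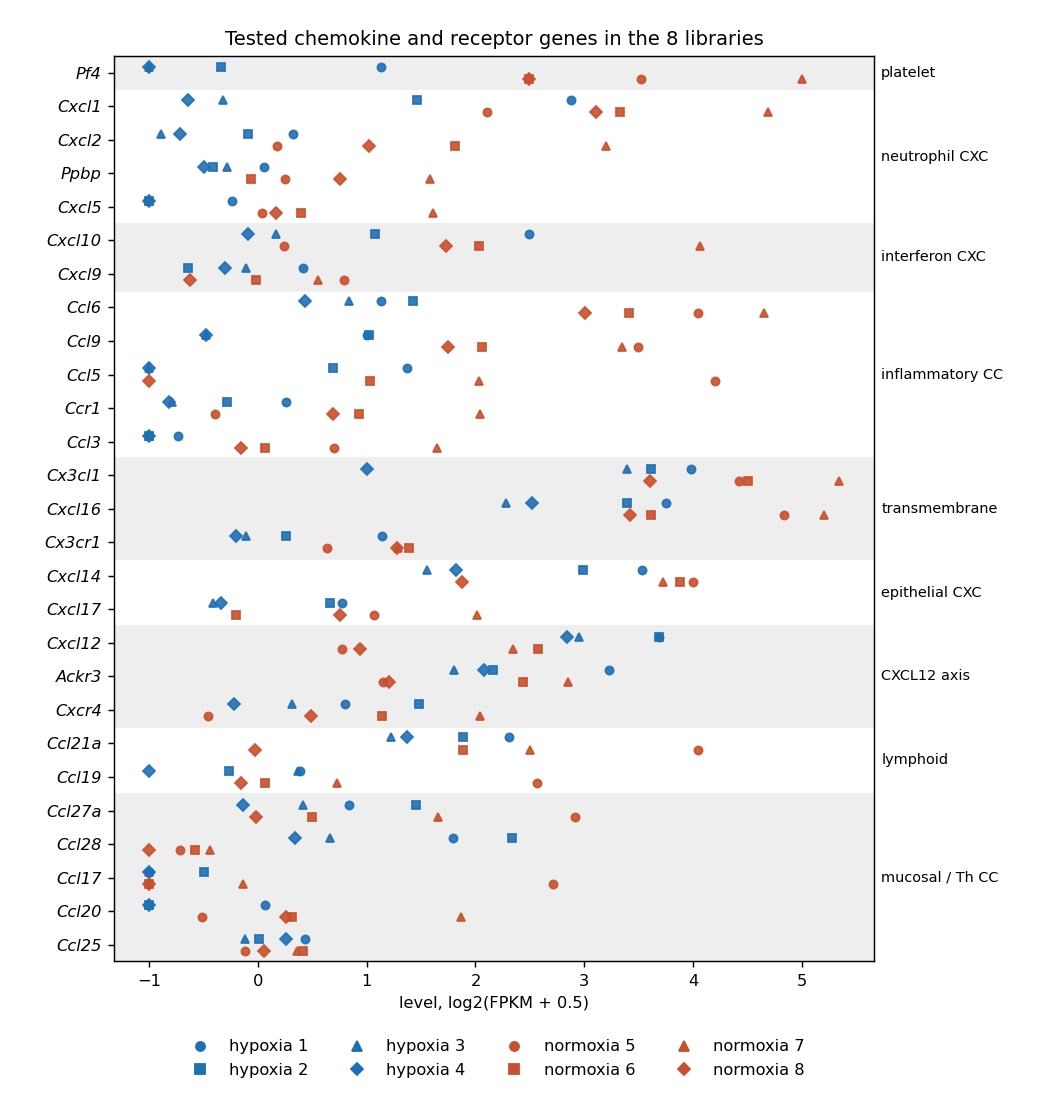
Level, as log2(FPKM + 0.5), of the 27 tested genes in each of the 8 libraries, grouped by role. Normoxia library 7 (triangles) holds the highest value of 14 genes and normoxia library 5 (circles) that of 8, the latter at the right-hand end for Ccl5, Ccl17, Ccl19, Ccl21a and Ccl27a.

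The interferon-induced ligands of CXCR3, which draw activated T cells, gave no call. Cxcl10 was 5.14, 1.61, 0.62 and 0.44 FPKM in hypoxia libraries 1 to 4 and 0.68, 3.59, 16.25 and 2.82 FPKM in normoxia libraries 5 to 8. Hypoxia library 1 lay above 3 of the normoxia libraries, and the change was -1.11 ± 0.66 (SE, adjusted p = 0.707). Without normoxia library 7, which held the highest value, it was -0.42 (adjusted p = 0.931), and it was called under 1 alternative, protein-coding scaling without normoxia library 5 (-1.80, adjusted p = 0.0292). Cxcl9 was 0.14 to 0.83 FPKM and 0.15 to 1.23 FPKM (log2 change -0.34, adjusted p = 0.969). Without normoxia library 5, where it was highest, Cxcl9 did not reach the level for testing. Cxcr3 was at most 0.46 FPKM and not tested, and the T cell markers summed to 0.170 to 0.830 FPKM after hypoxia and 0.180 to 3.80 FPKM after normoxia, with none of 7 high enough to test. Cxcl11 is annotated as a pseudogene and fell outside the rule.

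Ccl21a, Ccl19, Ccl17 and Ccl27a, chemokines of lymphoid homing, T helper cells and skin, were highest in normoxia library 5. Ccl21a, a ligand of CCR7, was 4.45, 3.19, 1.83 and 2.08 FPKM in hypoxia libraries 1 to 4 and 15.99, 3.19, 5.16 and 0.48 FPKM in normoxia libraries 5 to 8. The groups overlapped (log2 change -0.41 ± 0.65, SE, adjusted p = 0.997), and without normoxia library 5 the change turned to 0.24 (adjusted p = 0.959). Ccl19, the other ligand of CCR7, was 0.81, 0.33, 0.79 and 0 FPKM after hypoxia and 5.41, 0.55, 1.16 and 0.40 FPKM after normoxia (log2 change -0.93 ± 0.51, SE, adjusted p = 0.647). Without normoxia library 5 the change of Ccl19 was -0.34 (adjusted p = 0.918). Ccl17, a ligand of CCR4, was 0.21 FPKM in hypoxia library 2, 6.05 FPKM in normoxia library 5, 0.41 FPKM in normoxia library 7 and at 0 in the other 5 libraries (log2 change -1.02 ± 0.56, SE, adjusted p = 0.65). Without library 5 it did not reach the level for testing. Ccl27a ranged from 0.41 to 2.24 FPKM after hypoxia and from 0.49 to 7.02 FPKM after normoxia, the highest again in library 5 (log2 change -0.62, adjusted p = 0.899), and without that library the change was -0.07 (adjusted p = 0.989). Ccl17, Ccl19 and Ccl21a are short, with 514, 867 and 870 exonic bases. Ccl19, Ccl21a and Ccl27a lie in a repeated region of chromosome 4 with near-identical copies and Ccl27a overlaps Il11ra1, so their counts are uncertain.

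Ccl20, the ligand of CCR6, was 0.55 FPKM in hypoxia library 1, at 0 in 2 to 4, and 0.20, 0.74, 3.15 and 0.70 FPKM in normoxia libraries 5 to 8. The groups overlapped in normoxia library 5 (log2 change -1.21 ± 0.46, SE, adjusted p = 0.293), and with TMM scaling and without that library the change was called (-1.41, adjusted p = 0.0398). Ccl25, a gut and thymus chemokine, was 0.42 to 0.85 FPKM and 0.42 to 0.83 FPKM, the change nearest to 0 among the 27 (-0.03, 95% interval -0.82 to 0.76). Of 13 genes of the T helper and mucosal axis 5 were tested, and Ccl28 was the 1 called, beside 0.305% of all tested genes called higher. The atypical receptors other than Ackr3 were all below the level for testing. Ccrl2 had the highest level of them, at 0.17 to 1.14 FPKM after hypoxia and 0 to 1.09 FPKM after normoxia. Ackr1, the receptor of venular endothelium, was 0, 0.10, 0.17 and 0 FPKM after hypoxia and 0, 0, 0.09 and 0 FPKM after normoxia. Ackr4, which clears the ligands of CCR7, was 0.20 to 0.35 FPKM after hypoxia and 0.02 to 0.22 FPKM after normoxia. Among the 26 genes that were not tested, none averaged over 0.480 FPKM. Of these 18 had a lower mean after hypoxia and 6 a higher one. The share over all untested genes was not computed, so these counts say nothing particular to chemokine genes. Besides Cxcr2, the B cell receptor Cxcr5 did not overlap: it was at 0 in the 4 hypoxia libraries and 0.22, 0.09, 0.06 and 0.03 FPKM in the normoxia libraries. Both genes were so low that a value of 0 does not show absence. The share of untested genes without overlap was not computed either, so the separation says nothing particular to these genes.

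The hypoxia group was not uniform. Both hypoxia libraries 1 and 2 lay above both 3 and 4 for 19 of the 27 tested genes as deposited and for 8 of them after protein-coding scaling, while the same held for 79.1% and 13.8% of all tested genes. Ribosomal shares were 40.9% and 21.5% in libraries 1 and 2 and 66.3% and 67.4% in 3 and 4. Within the hypoxia group Cxcl1, Cxcl10 and Pf4 were highest in library 1 on both scales, at 5.07, 3.80 and 1.25 FPKM after scaling. After protein-coding scaling the groups of 5 genes did not overlap and were lower (Pf4, Ccl6, Ccl9, Ccl3 and Cxcl16) and those of 1, Ccl28, were higher, beside 6.72% and 4.65% of all tested genes.

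Other genes of the pathway were read from lists. Of 38 genes of receptor signalling 31 were tested and none was called. At an unadjusted p under 0.05, 8 were lower and none higher, beside 6.84% and 2.52% of all tested genes. There were 28 changes below 0, with a median of -0.72, beside 61.0% and -0.14 over all tested genes. Fgr, Itgam, Pik3r5, Rgs16, Vav1 and Was, all among the 8, passed the filter only through the normoxia group. Tiam1 passed it only through the hypoxia group. These counts are therefore no separate evidence of a difference. Rac2, a small GTPase of leukocytes, was 1.28, 1.28, 0.24 and 0.52 FPKM in hypoxia libraries 1 to 4 and 13.49, 2.26, 5.71 and 1.79 FPKM in normoxia libraries 5 to 8, without overlap (log2 change -1.96 ± 0.55, SE, adjusted p = 0.0872). Itgam, the integrin subunit of myeloid cells, had a log2 change of -1.72 ± 0.48 (SE, adjusted p = 0.0882). Of 13 genes that cleave or hold chemokines 11 were tested and none was called (2 lower and none higher at an unadjusted p under 0.05, median -0.25). Adam10, the protease that sheds CX3CL1 and CXCL16, was 3.65 to 7.59 FPKM after hypoxia and 1.26 to 11.99 FPKM after normoxia. Among the genes left out, the monocyte chemoattractant cluster and Ccr2, 4 were tested and 3 fell, with a median of -2.51. Over all tested genes 0.602% were called lower. Ccl7, Ccl12 and Ccr2 passed the filter only through the normoxia group.

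**Figure D5:**
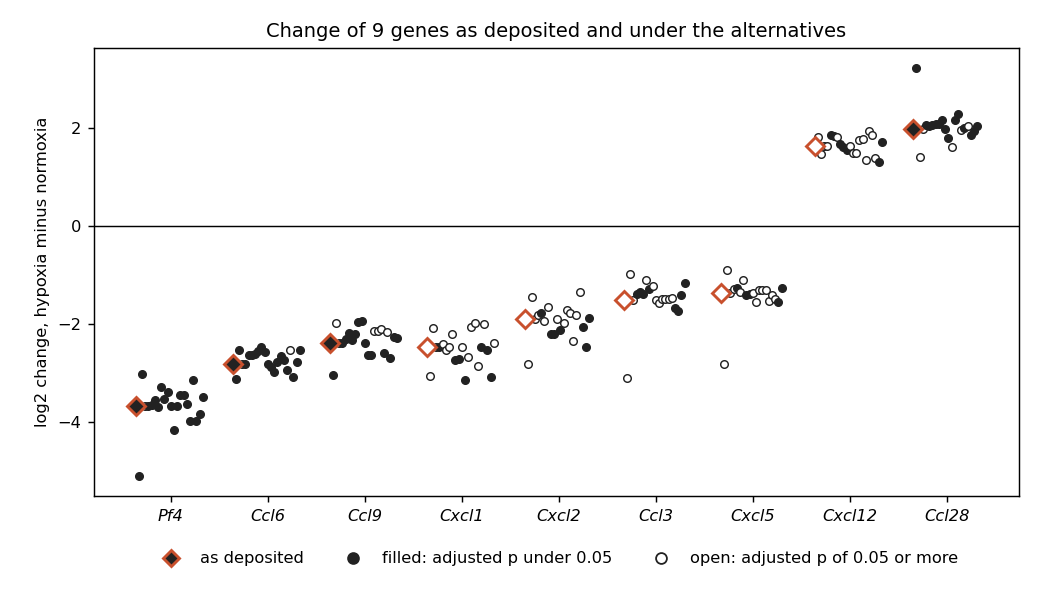
Log2 change (hypoxia minus normoxia, y axis) of 9 chemokine genes as deposited (diamonds) and under each alternative in which the gene was tested (circles), filled where the adjusted p was under 0.05. No direction turned for these 9 genes, and each of the 9 genes was called under some settings and not under others (Pf4 was not called with no filter on low values, and Ccl6 with no filter and without normoxia library 7).

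The call of Pf4 held when any 1 library was left out, and that of Ccl6 held except without normoxia library 7 (log2 change -2.53, adjusted p = 0.0639). The call of Ccl9 was lost when hypoxia library 3 or 4 was left out (adjusted p = 0.0858 and 0.0767). It was also lost without normoxia library 5 (log2 change -2.11, adjusted p = 0.0975) or 7 (-2.16, adjusted p = 0.206). That of Ccl28 was lost when hypoxia library 2 was left out (adjusted p = 0.0974) and when normoxia library 5 or 7 was (0.0879 and 0.156). With TMM scaling and without normoxia library 5, 9 of these genes were lower (Pf4, Ccl6, Ccl9, Ccl3, Cxcl1, Cxcl2, Cxcl5, Ccl20 and Ccr1) and 2 higher (Ccl28 and Cxcl12), beside 4.22% and 4.43% of all tested genes.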

How the data were processed

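Poly(A) RNA of 8 kidneys was sequenced from TruSeq stranded libraries, per the labels' protocols, and the submitters' processing notes name HISAT2, StringTie and edgeR as tools used by the authors, without roles. The sources used here do not give the genome build or annotation. The authors deposited FPKM values per gene and library, per the file headers, with no recorded scaling between libraries. All 34450 gene identifiers matched GENCODE M21 (GRCm38), which gave symbols, exon lengths and coordinates. Replicate numbers (1 to 4 and 5 to 8) are not shared between groups.

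Genes with a mean of at least 0.5 FPKM (14444) were tested as log2(FPKM + 0.5) with limma 3.58.1 in R 4.3.3 (two-sided moderated test, trended variance, group as the only factor), and p-values were adjusted by Benjamini-Hochberg over all of them. The step was tested on simulated data. Depth was estimated from the spacing of low FPKM values in single-exon genes, and ribosomal shares from FPKM times exon length. Alternatives were 2 pseudocounts, 2 filters, TMM (a formula, used as a scaling only), quantile and protein-coding scaling, removal of the length trend (loess, span 0.5), robust variance and each library left out. Protein-coding scaling combined with no normoxia library 5, or with removal of the length trend, was added after seeing the data. The genes, lists and rules were chosen with earlier results of these data known. Values in every library are given for called genes, the 20 with the smallest p and 16 fixed by name, 1 of which is not reported here.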

Additional observations from a re-analysis of the deposited data

Results flagged for a closer look

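In 54 groups of 4 libraries (27 genes, on the log2 scale) 6 had 1 library far from the other 3, where chance flags about 1 in 20 groups. The measure is the gap to the nearest library divided by the whole range, and the limit is Dixon's 95% critical value. In 4 of them the other 3 hypoxia libraries were all listed at 0, which gives a value of 1: hypoxia library 1 for Ccl3 (0.10 FPKM), Cxcl5 (0.35 FPKM) and Ccl20 (0.55 FPKM), and hypoxia library 2 for Ccl17 (0.21 FPKM). Normoxia library 8 was low for Cxcl14 (3.18 FPKM, gap 0.869) and normoxia library 5 was low for Cx3cr1 (1.05 FPKM, gap 0.849).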

How the results depend on the processing

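Of 464 values of the 23 named tested genes under the 21 alternatives, 403 kept direction and side of the threshold, 14 lost a call, 44 gained one and 3 turned direction, all of Cxcr4 and none of them called: 0.06 with the length trend removed, 0.06 without hypoxia library 4 and 0.20 without normoxia library 7. Leaving out 1 library moved the change of Cxcr4 between -0.63 and 0.20. The number of genes higher (1 as deposited) was 0 with a pseudocount of 1, with no filter on low values and with a filter of 2 FPKM, which Ccl28 did not reach. It was 2 with TMM scaling, quantile normalization and the length trend removed, and also 2 for TMM scaling, the length trend removed or protein-coding scaling without normoxia library 5, and for protein-coding scaling with the length trend removed. The number lower (3 as deposited) was 0 with no filter, 6 with quantile normalization and with protein-coding scaling and the length trend removed, 9 with TMM scaling or the length trend removed without normoxia library 5, and 11 with protein-coding scaling without that library. Calls also rose over all tested genes, from 44 higher and 87 lower as deposited. They were 280 and 349 with quantile normalization, and 322 and 427 with protein-coding scaling and the length trend removed. Without normoxia library 5 they were 638 and 608 with TMM scaling, 717 and 869 with the length trend removed, and 472 and 1709 with protein-coding scaling. Without a filter limma called none of 30982 genes, and an unadjusted p under 0.05 was reached by 665 with a higher and 1356 with a lower level, among them 2 and 16 of 51 chemokine and receptor genes. Leaving out 1 library gave 0 to 1 higher (0 without hypoxia library 2 or normoxia library 5 or 7) and 1 to 7 lower (1 without normoxia library 7, 5 without hypoxia library 1 or normoxia library 6, 7 without normoxia library 8, and 2 without hypoxia library 3 or 4 or normoxia library 5). Over all tested genes 4 were lower without normoxia library 7 and 237 without normoxia library 8. The cause of these differences was not tested. No paired analysis was possible because the groups share no replicate number. Most of the receptors rest on a few fragments, so that a value of 0 does not show absence.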
